A study of Mus musculus with 16 samples.

Results

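Leptin-deficient obese mice were compared with lean mice across all genes measured in whole pancreas. RNA was sequenced from 12 of the 16 mice of the study, namely 7 Lep(ob/ob) mice on control drinking water and 5 wild-type (WT) mice, with 1 library per mouse. Lep(ob/ob) mice carry a spontaneous mutation in both copies of *Lep*, make no functional leptin, overeat and become obese. All 12 mice were C57BL6/J males of 12 weeks of age with free access to chow, and the Lep(ob/ob) mice drank plain water as the control arm of a 6-week drug treatment that started at 6 weeks of age. The labels say that the WT mice were bred in house, whereas the study's methods describe mice of both genotypes as purchased, so the place of breeding may differ between the groups. The other 4 mice of the study, which were Lep(ob/ob) and drank a CCK receptor antagonist, entered the model fit to estimate the spread but are not described. Of 24411 genes counted, 13660 passed a filter on low counts and were tested.

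The pancreas is mostly made of acinar cells, which make digestive enzymes, store them in zymogen granules and release them into ducts when hormones and nerves call for it. Scattered among them are the islets, in which β cells make insulin, α cells glucagon, δ cells somatostatin and PP cells pancreatic polypeptide. In leptin deficiency, insulin resistance raises the demand on β cells, and islets are known to grow. Since the whole organ was ground up, a rise of a gene can come from more cells that express it or from more RNA per cell, and these cannot be told apart here.

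The obese mice weighed 51.0 ± 1.98 g (SD, n = 7) and the lean mice 27.7 ± 3.22 g (SD, n = 5), and the groups did not overlap (exact two-sided permutation test, p = 0.00126). Libraries of the obese group held 13.6 to 34.5 M counts and those of the WT group 10.8 to 29.3 M. The labels give 2 sequencing batches, RQ14163 with 4 Lep(ob/ob) and 3 WT mice and RQ15502 with 3 Lep(ob/ob) and 2 WT mice. Digestive enzyme genes, which mark this organ, took between 45.1% and 68.2% of all counts in the obese group and between 45.5% and 67.6% in the WT group. In the following, levels are CPM, counts scaled to the size of the library with TMM normalization, and differences are log2 fold changes of Lep(ob/ob) over WT from edgeR's quasi-likelihood test with batch as a covariate. A gene is called higher or lower where its p-value, adjusted over all genes tested by the Benjamini-Hochberg method, is under 0.05. These p-values measure the spread between individual mice. The gene lists were chosen with earlier results of these data known, so the shares of called members are descriptions and not independent of those results.

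Altogether 1239 genes were called, 9.07% of those tested, of which 810 were higher (5.93%) and 429 lower (3.14%) in Lep(ob/ob) mice. The rises were larger than the falls. Of the higher genes 592, and of the lower genes 120, changed at least 2-fold. Of the 1194 called genes that could be tested in both batches, 1193 had the same sign in each. The calls were made from both batches together, which favors the same sign, so this is not a replication. No gene passed a test of the difference in genotype effect between batches (0 by edgeR, 1611 at an unadjusted p under 0.05). In 552 genes, 4.04% of those tested, no Lep(ob/ob) mouse overlapped with any WT mouse. *Lep* itself, on chromosome 6 (chr6:29060220-29073877, plus strand, GRCm38), was detected at 0.986, 3.68, 2.38, 1.28 and 2.80 CPM in the WT mice and at 14.2 to 477 CPM in Lep(ob/ob) mice, with a median of 77.5. Its log2 fold change was 5.38 (SE 0.92, adjusted p = 0.00146). The mutation of these mice is a point mutation that leaves the transcript in place, so this level checks neither the labels nor the amount of protein.

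Genes of hormone granules and regulated exocytosis rose in large numbers. This machinery packs peptide hormones into dense-core granules, cuts them to their active forms and fuses the granules with the cell membrane. Of 28 members tested, 19 were called higher (67.9%, against 5.93% of all genes tested) and 0 lower. The list median was 1.90 against -0.02 over all genes tested. In 16 members the groups had no overlap, as in 4.04% of all genes tested. Their summed share of all counts lay between 0.125% and 0.313% in the obese group and between 0.0393% and 0.0629% in the WT group.

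*Chgb*, a granin that helps granules to form, had 14.0, 11.8, 13.5, 11.3 and 10.2 CPM in WT mice. It had 238, 204, 262 and 215 CPM in the 4 Lep(ob/ob) mice of batch RQ14163 and 59.4, 69.0 and 62.4 CPM in the 3 of batch RQ15502. Every Lep(ob/ob) mouse was above every WT mouse, and within the obese group the batches were apart. The log2 fold change was 3.47 (SE 0.46, adjusted p = 0.000223), with 4.20 within batch RQ14163 and 2.53 within RQ15502. *Ptprn*, a receptor-type phosphatase of the granule membrane, was at 2.93 to 5.39 CPM in WT and at 11.1 to 83.5 CPM in Lep(ob/ob) mice (log2 fold change 3.24, SE 0.41, adjusted p = 0.000174). *Scg2*, another granin, rose from a median of 52.8 to 776 CPM (log2 fold change 3.44, SE 0.52, adjusted p = 0.000597). The granule peptide *Vgf* was at 0 to 0.455 CPM in WT and 0.447 to 6.61 CPM in Lep(ob/ob) mice. The prohormone convertases *Pcsk1* and *Pcsk2*, which cut proinsulin and proglucagon, had log2 fold changes of 1.85 and 2.41.

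*Syp*, the synaptic vesicle protein synaptophysin, and *Pam*, which amidates peptide hormones, rose by similar amounts in both batches. *Syp* had 6.14, 7.22, 6.01, 3.57 and 2.56 CPM in WT mice and 12.6 to 36.8 CPM in Lep(ob/ob) mice. Its log2 fold change was 2.30 (SE 0.24, adjusted p = 4.72e-05), with 2.38 in RQ14163 and 2.23 in RQ15502. *Pam* had a log2 fold change of 1.52 (SE 0.20, adjusted p = 0.000186), with 1.53 and 1.57 in the batches. For 18 of the 19 called members the difference was larger in RQ14163. Of the fusion machinery, *Snap25* (log2 fold change 2.51) and *Unc13a* (1.96) were among those called higher, whereas *Stx1a* (0.39), *Vamp2* (0.13), *Rab3a* (0.51) and *Rab27a* (0.13) were not called. Neither was the granule phosphatase *Ptprn2* (0.47).

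The promoters of 3 of the called granule genes hold the cAMP response element, the 8-base word bound by CREB-family factors, and are shown because these genes rose together. RefSeq promoter windows, from 250 bases before to 50 after the start (GRCm38.p6), were on hand for 13 of the 19 called genes, and 3 of these 13 hold TGACGTCA, a word that reads the same on both strands and occurs in 1.79% of all 32851 windows and in 2.03% of the 27025 genes with a window. The sequences below are written on the strand of the gene with the word in capitals.
*Chgb* (chr2:132781540-132781607, plus strand): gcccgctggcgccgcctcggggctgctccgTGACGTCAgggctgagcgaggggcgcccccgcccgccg
*Scg2* (chr1:79440057-79440124, minus strand): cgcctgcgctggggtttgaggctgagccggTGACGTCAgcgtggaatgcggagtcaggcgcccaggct
*Pcsk1* (chr13:75089749-75089816, plus strand): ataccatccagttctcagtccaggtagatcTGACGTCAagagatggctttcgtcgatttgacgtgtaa
The word starts 72, 68 and 78 bases before the start of *Chgb*, *Scg2* and *Pcsk1*. A match describes the letters only, and binding was not measured.

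**Figure D1:**
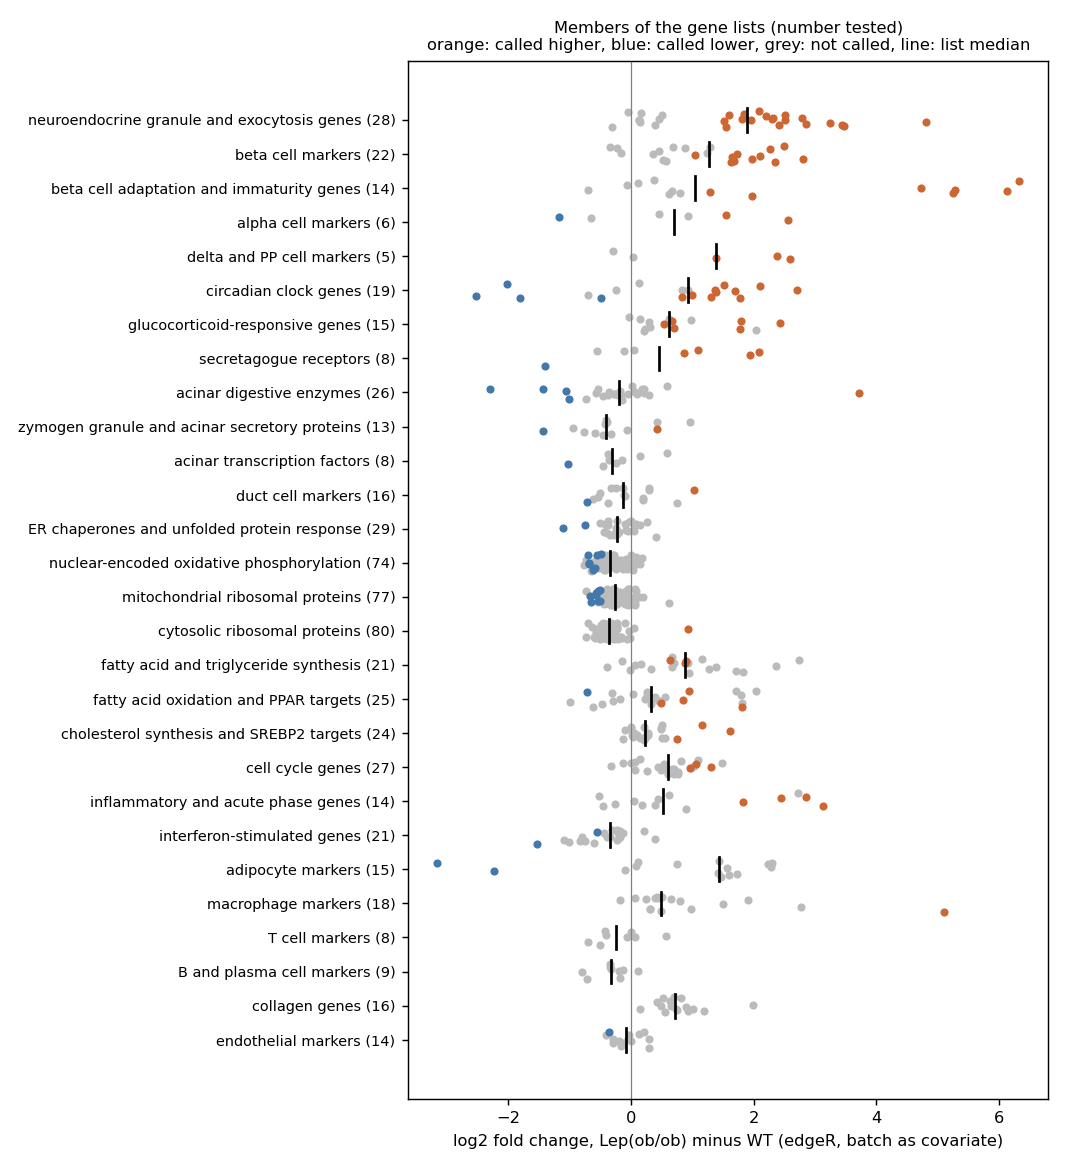
Log2 fold change of Lep(ob/ob) over WT mice for the tested members of 28 gene lists, 1 point per gene, with the list median as a black line. Most members of the granule and β cell lists lie to the right of 0, with 19 of 28 and 11 of 22 called higher, while most members of the acinar lists lie close to 0.

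Some markers of β cells were called higher and others were not. Of 22 members tested, 11 were called higher (50%, against 5.93% of all genes tested) and 0 lower, with a median of 1.27. The count was 7 without WT mouse 5489 or without WT mouse 5492, and up to 12 without another mouse. It was 18 within RQ14163 alone, 0 within RQ15502 alone and 18 with the adipocyte marker score as a covariate. *Ins1* and *Ins2* together took between 0.219% and 0.704% of all counts in the obese group and between 0.0544% and 0.111% in the WT group. *Ins2* (chr7:142678656-142743381, minus strand) had 654, 688, 719, 649.9 and 481 CPM in WT mice. In Lep(ob/ob) mice it had 6536, 6617, 4901 and 4727 CPM in batch RQ14163 and 1558, 1253 and 2871 CPM in batch RQ15502. The groups did not overlap, and the log2 fold change was 2.49 (SE 0.47, adjusted p = 0.00327). The *Ins1* transcript is much like that of *Ins2*, and reads common to both could have been split or lost in counting. *Iapp*, the amyloid peptide released with insulin, had a log2 fold change of 2.81 (SE 0.51, adjusted p = 0.00234). *Abcc8*, the sulfonylurea receptor of the channel that starts insulin release, was at 7.50 to 10.3 CPM in WT and at 12.7 to 87.8 CPM in Lep(ob/ob) mice (log2 fold change 2.36, SE 0.38, adjusted p = 0.00101). Its channel partner *Kcnj11* (1.67) and the β cell transcription factors *Nkx6-1* (1.65), *Pax6* (1.64), *Rfx6* (1.98) and *Isl1* (1.04) were also called higher.

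Other β cell genes were not called. *Mafa*, a transcription factor of mature β cells, was at 0.973 to 2.58 CPM in WT and 0.700 to 4.98 CPM in Lep(ob/ob) mice (log2 fold change 0.53, SE 0.39, adjusted p = 0.442). *Slc2a2*, the glucose transporter of β cells, had a log2 fold change of 0.46 (SE 0.34, adjusted p = 0.437), and *Pdx1*, which acts in β cells and in acinar and duct cells, one of 0.58 (SE 0.30, adjusted p = 0.26). For these 3 genes the Lep(ob/ob) mice of batch RQ14163 had a higher median than the WT mice of that batch, whereas the fold changes within RQ15502 were -0.26, -0.49 and -0.19. *Ucn3*, a peptide of mature β cells, had a log2 fold change of 1.25 (SE 0.50, adjusted p = 0.135). Over the whole list the median was 1.79 within RQ14163 and 0.50 within RQ15502, and all 11 called members had the larger difference in RQ14163.

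Among 14 genes linked to β cell adaptation and immaturity, 7 were called higher (50%, against 5.93% of all genes tested) and 0 lower. This list was chosen with earlier results of these data known, and *Serpina7*, *Oxtr* and *Slc5a7* are also among the largest rises. Its share is therefore not independent of these data. With any 1 mouse left out, and without mice 417, 461 and 463, 7 were also called higher. Without WT mouse 5489, 1 member was called lower as well. These 3 mice were the highest of the obese mice for 8 of the 14. *Aldh1a3*, a retinoic acid synthesizing enzyme found in stressed β cells, had 0.303, 0.936, 0.340, 0.823 and 0.487 CPM in WT mice and 7.92 to 22.8 CPM in Lep(ob/ob) mice, with a median of 18.4. The lowest obese mouse thus stood far above the highest lean one, and the log2 fold change was 4.72 (SE 0.49, adjusted p = 4.7e-05). *Serpina7*, which encodes thyroxine-binding globulin and lies on chromosome X, was at 0, 0, 0.113, 0.366 and 0.122 CPM in WT and at 2.26 to 15.4 CPM in Lep(ob/ob) mice. Its log2 fold change of 6.13 (SE 0.79, adjusted p = 0.000181) rests on WT libraries with few or no reads. *Prlr*, the prolactin receptor, rose by 1.30 and *St18*, a zinc finger factor of islets, by 1.97.

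Of the other islet cells, PP and α cell genes rose in part. *Ppy*, pancreatic polypeptide, was at 2.21 to 4.21 CPM in WT and 3.35 to 35.9 CPM in Lep(ob/ob) mice (log2 fold change 2.59, SE 0.52, adjusted p = 0.00498), and its relative *Pyy* had a log2 fold change of 2.37 (adjusted p = 0.00338). The α cell genes *Gc* (2.56, adjusted p = 0.00076), a vitamin D binding protein, and *Ttr* (1.55, adjusted p = 0.0119), transthyretin, were called higher. *Gcg*, which encodes glucagon, was not called (log2 fold change 0.93, SE 0.44, adjusted p = 0.216). Neither was *Sst*, which encodes somatostatin (0.04, SE 0.45, adjusted p = 0.974), at 15.2 to 19.6 CPM in WT and 7.90 to 27.6 CPM in Lep(ob/ob) mice. The somatostatin receptor *Sstr2*, on the α cell list, was called lower (log2 fold change -1.17, adjusted p = 0.00677).

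**Figure D2:**
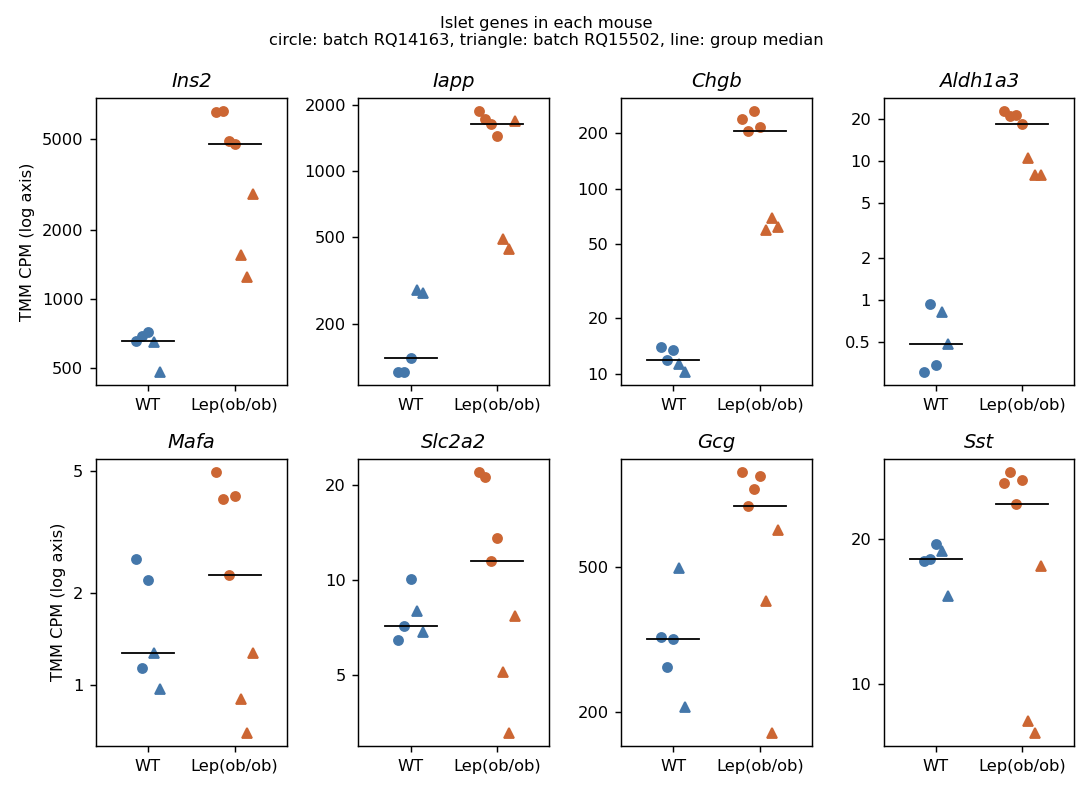
TMM CPM on a log axis of 8 islet genes in each WT and Lep(ob/ob) mouse, with symbols by sequencing batch and the group median as a line. *Ins2*, *Iapp*, *Chgb* and *Aldh1a3* do not overlap between the groups, while *Mafa*, *Slc2a2*, *Gcg* and *Sst* do.

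Several of the largest rises were of genes on none of the islet lists. The largest among genes with no overlap between groups and a mean log2 CPM of at least 1 included *Serpina7*, *Lep*, *Oxtr*, *Slc5a7*, *Pdyn*, *Gucy2c*, *Aldh1a3*, *Npr3*, *Dapl1*, *Pappa2* and *Reg2*. *Pdyn*, the precursor of dynorphin opioid peptides, was at 0.304 to 1.64 CPM in WT mice and at 8.56 to 50.9 CPM in Lep(ob/ob) mice (log2 fold change 4.86, SE 0.55, adjusted p = 7.18e-05). *Gucy2c*, the receptor of the gut peptides guanylin and uroguanylin, was at 0.134 to 0.304 CPM in WT mice, at 10.9 to 11.6 CPM in the Lep(ob/ob) mice of RQ14163 and at 1.71 to 2.78 CPM in those of RQ15502 (log2 fold change 4.76, SE 0.55, adjusted p = 8.16e-05). *Pappa2*, a protease that frees insulin-like growth factors from their binding proteins, rose from 1.28 to 8.09 CPM in WT to 21.5 to 162 CPM in Lep(ob/ob) mice (log2 fold change 3.92, SE 0.39, adjusted p = 4.08e-05). *Vil1*, the microvillus protein villin, had a log2 fold change of 2.88 (SE 0.33, adjusted p = 8.08e-05) and was the only member of the intestinal epithelial list with enough reads to be tested. *Reg2* rose from 150.5 to 891 CPM in WT to 3016 to 11039 CPM in Lep(ob/ob) mice, and 3 of 6 *Reg* genes were called higher (50%, against 5.93% of all genes tested).

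For *Lep*, *Oxtr*, *Slc5a7* and *Npr3*, the 3 highest Lep(ob/ob) mice were mice 417, 461 and 463, the same 3 that had the highest fat cell markers. The mean log2 CPM of 15 adipocyte markers was 4.87, 4.86 and 6.39 in these 3 mice, 2.58 to 3.86 in the other 4 Lep(ob/ob) mice and 2.35 to 4.25 in WT mice. Summed over the list, this was 254 to 4385 CPM in the obese and 221 to 601 CPM in the WT group. *Adipoq*, the fat cell hormone adiponectin, was detected in every mouse, at 5.99 to 22.9 CPM in WT and 7.54 to 210.5 CPM in Lep(ob/ob) mice. The oxytocin receptor *Oxtr* had 0.228 to 0.669 CPM in WT mice, 5.40 to 10.5 CPM in 4 Lep(ob/ob) mice and 25.8 to 86.1 CPM in mice 417, 461 and 463. *Npr3*, the clearance receptor of natriuretic peptides, had 1.74 to 6.82 CPM in WT mice, and 20.2 CPM in the lowest and 335 CPM in the highest Lep(ob/ob) mouse. All 4 genes were still called without these 3 mice, with log2 fold changes of 3.84 for *Lep*, 3.86 for *Oxtr*, 3.52 for *Slc5a7* and 2.82 for *Npr3*. That fit was chosen after the data had been seen. Of the 7 called genes of the β cell adaptation list, *Oxtr*, *Slc5a7* and *Tph2* also had their highest values in these 3 mice, and all 3 had larger differences in RQ15502 than in RQ14163, unlike the granule genes. *Pdyn*, *Gucy2c*, *Pappa2* and *Aldh1a3* did not have this order. The part of fat tissue in these differences was not tested.

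**Figure D3:**
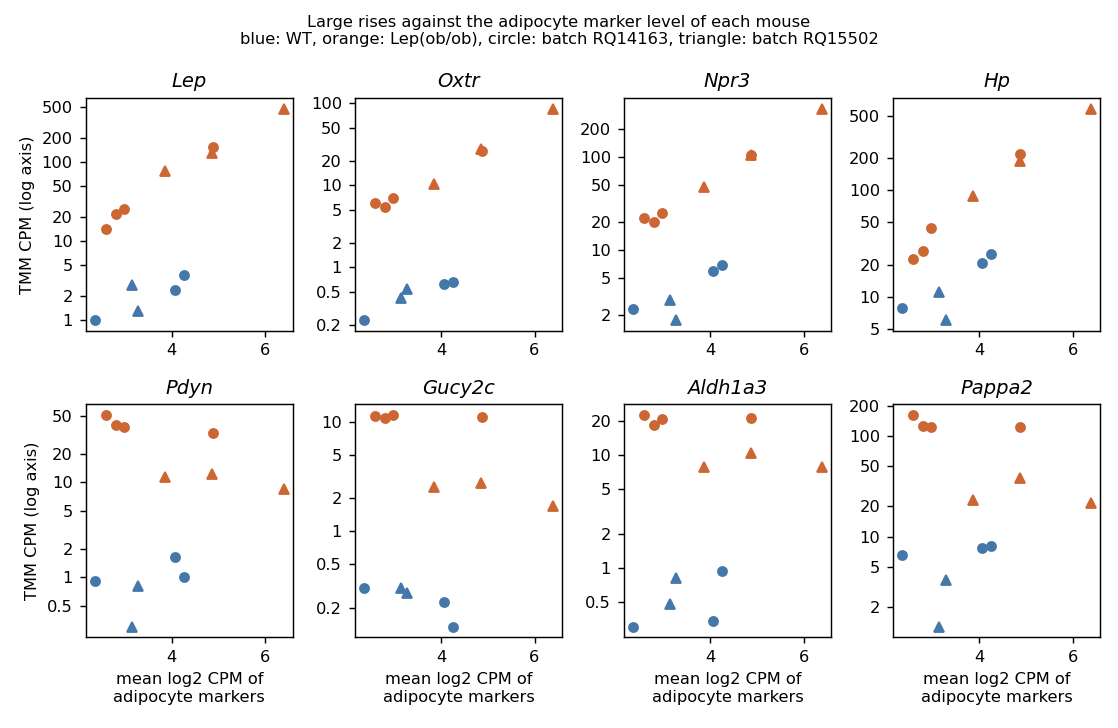
TMM CPM on a log axis of 8 genes with large rises (7 of the 12 largest, and *Hp*) against the mean log2 CPM of 15 adipocyte markers in the same mouse. *Lep*, *Oxtr*, *Npr3* and *Hp* are highest in the Lep(ob/ob) mice with the highest marker level, whereas *Pdyn*, *Gucy2c*, *Aldh1a3* and *Pappa2* are not.

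Markers of fat tissue, macrophages and connective tissue varied together between the obese mice. Mice 417, 461 and 463 were the 3 highest of the 7 for 14 of 15 adipocyte markers, 18 of 18 macrophage markers, 7 of 7 MHC class II genes and 15 of 16 collagen genes, against 13.1% of all genes tested. For granule and β cell genes this was so for 0 of 28 and 0 of 22, and for β cell adaptation genes for 8 of 14. No adipocyte marker was called higher, although the list median was 1.44, and 2 were called lower (13.3%, against 3.14% of all genes tested). *Cfd*, the fat cell protease adipsin, had 17.4, 71.7, 75.3, 38.2 and 34.4 CPM in WT and 0.787 to 23.5 CPM in Lep(ob/ob) mice (log2 fold change -3.15, SE 0.69, adjusted p = 0.00806). *Adrb3*, the β3-adrenergic receptor of fat cells, had a log2 fold change of -2.23 (SE 0.67, adjusted p = 0.0481), and its call was lost when any of 8 single mice was left out. The macrophage elastase *Mmp12* was called higher (log2 fold change 5.10, SE 1.12, adjusted p = 0.00858), and the other 17 macrophage markers were not called. That share of 5.56% is near the 5.93% of all genes tested. Without mice 417, 461 and 463 the log2 fold change of *Mmp12* was 2.50 (adjusted p = 0.0307), and within each batch alone it was not called. Of 8 T cell, 9 B and plasma cell, 7 MHC class II, 3 neutrophil, 14 stellate cell and fibroblast, 16 collagen, 7 smooth muscle, 5 mesothelial, 4 Schwann cell and 2 erythroid genes, none was called in the main test. Without mice 417, 461 and 463, 4 MHC class II and 4 smooth muscle genes were called lower. With the β cell marker score as a covariate, 13 adipocyte, 17 macrophage, 15 collagen and 8 stellate cell and fibroblast genes were called higher.

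The genes of the circadian clock moved in 2 directions. In this clock, the factors CLOCK and BMAL1 (*Arntl*) switch on the *Per* and *Cry* genes, whose proteins then block them, and the D-box factors *Dbp*, *Tef* and *Hlf* and their antagonist *Nfil3* pass the rhythm on. Of 19 members tested, 10 were called higher (52.6%) and 4 lower (21.1%) in Lep(ob/ob) mice, against 5.93% and 3.14% of all genes tested. Without WT mouse 5489, 2 were lower. *Arntl* and its partners *Clock* and *Npas2* were lower together with *Nfil3*, while *Per1*, *Per2*, *Per3*, *Cry2*, *Dbp*, *Tef*, *Hlf*, *Ciart*, *Bhlhe40* and *Bhlhe41* were higher. The hour at which pancreata were taken is not given in the sources used here.

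*Arntl* (chr7:113207465-113314126, plus strand) had 22.8, 14.8 and 17.7 CPM in the WT mice of batch RQ14163 and 2.10 and 3.77 CPM in those of RQ15502. Lep(ob/ob) mice had 0.995, 0.919, 4.14 and 2.75 CPM in RQ14163 and 1.05, 1.21 and 0.830 CPM in RQ15502. Within each batch the groups did not overlap, but the WT mice of the batches were far apart. The log2 fold change was -2.52 (SE 0.36, adjusted p = 0.000368). *Nfil3* had 14.0, 3.41, 9.24, 4.12 and 4.38 CPM in WT and 1.07 to 2.45 CPM in Lep(ob/ob) mice (log2 fold change -2.02, SE 0.32, adjusted p = 0.000919). *Npas2* (-1.80, adjusted p = 0.0172) followed the pattern of *Arntl*, with 2.47 to 4.08 CPM in the WT mice of RQ14163 and 0.366 and 0.426 CPM in those of RQ15502.

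*Dbp* (chr7:45705088-45710203, plus strand) had 1.67, 5.48, 3.06, 12.3 and 8.40 CPM in WT mice and 16.7 to 51.0 CPM in Lep(ob/ob) mice, with a median of 36.8. All 7 obese mice were above all 5 lean mice, and the rise was 6.52-fold (SE 0.38 on the log2 scale, adjusted p = 0.000344). Here too the WT mice of the batches were apart, with 12.3 and 8.40 CPM in RQ15502 and 5.48 CPM or less in RQ14163. *Cry2*, a repressor of the clock, rose with little spread, from 8.95 to 11.8 CPM in WT to 16.2 to 21.5 CPM in Lep(ob/ob) mice (log2 fold change 0.84, SE 0.11, adjusted p = 0.000223). *Bhlhe41*, another repressor, had a log2 fold change of 1.37 (SE 0.18, adjusted p = 0.000221). *Per3* was at 2.50 to 3.14 CPM in the WT mice of RQ14163 and at 9.60 and 19.4 CPM in those of RQ15502, and at 7.32 CPM or more in Lep(ob/ob) mice, with a median of 17.5 (log2 fold change 1.52, SE 0.30, adjusted p = 0.0045). For 9 of the 10 called higher members the difference was larger in RQ14163. *Nr1d1* (0.83, adjusted p = 0.168) and *Nr1d2* (0.94, adjusted p = 0.0603), which encode the REV-ERB repressors of *Arntl*, and *Cry1* (-0.24, adjusted p = 0.754) were not called.

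**Figure D4:**
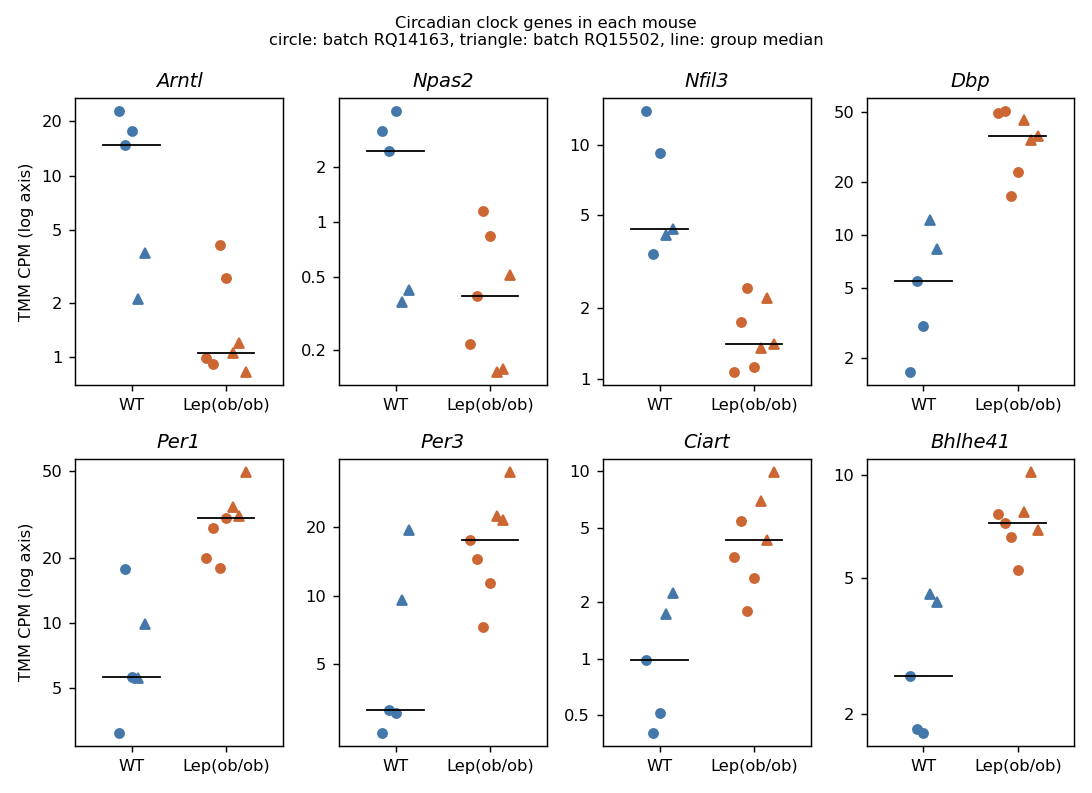
TMM CPM on a log axis of 8 circadian clock genes in each mouse, with symbols by sequencing batch and the group median as a line. *Arntl*, *Npas2* and *Nfil3* are lower and the other 5 genes higher in Lep(ob/ob) mice, and WT mice of the batches lie apart for *Arntl*, *Npas2*, *Dbp*, *Per3* and *Ciart*, among others.

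Clock factors act through short words in promoters, and the sequences below show examples of them in the called clock genes, 1 for each gene printed. BMAL1 and CLOCK bind the E-box CACGTG, and the D-box factors bind TTANGTAA. For REV-ERB and ROR factors the word searched was TNGGTCA, called the ROR element here. It takes any base at N and is looser than the sites of these factors, so a match need not be such a site. All words were searched on both strands of the RefSeq windows. Of the 10 genes called higher, 8 had a window, and 4 of these (*Per1*, *Tef*, *Bhlhe41* and *Ciart*) hold an E-box, against 8.09% of all genes with a window. Of the 4 genes called lower, all had a window and 0 hold an E-box. The ROR element was found in 2 of these 4, *Arntl* and *Nfil3*, and in 3 of the 8 higher genes, against 12.4% of all genes. *Per3* was the only called clock gene with a D-box, against 2.72% of all genes, and it holds that word at 2 positions. *Ciart* and *Arntl* also hold their word at further positions, which are not printed, and no sequence of *Tef* is printed. The word is in capitals.
*Per1* E-box (chr11:69098753-69098818, plus strand): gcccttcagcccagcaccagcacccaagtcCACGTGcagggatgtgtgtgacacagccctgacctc
*Bhlhe41* E-box (chr6:145865538-145865603, minus strand): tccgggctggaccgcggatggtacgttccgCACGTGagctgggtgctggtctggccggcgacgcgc
*Ciart* E-box (chr3:95882309-95882374, minus strand): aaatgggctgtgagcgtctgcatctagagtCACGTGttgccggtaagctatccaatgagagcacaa
*Per3* D-box (chr4:151044833-151044900, minus strand): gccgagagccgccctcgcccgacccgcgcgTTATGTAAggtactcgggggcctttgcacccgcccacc
*Arntl* ROR element (chr7:113207235-113207301, plus strand): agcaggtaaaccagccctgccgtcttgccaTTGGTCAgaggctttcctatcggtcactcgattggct
*Nfil3* ROR element (chr13:52981015-52981081, minus strand): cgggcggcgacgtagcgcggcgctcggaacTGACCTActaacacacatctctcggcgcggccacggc
In *Nfil3* the element lies on the opposite strand. These matches are descriptions, and no binding was measured.

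Genes that respond to glucocorticoids rose in part. Lep(ob/ob) mice are known for high corticosterone, which was not measured in the data used here. Of 15 members tested, 6 were called higher (40%, against 5.93% of all genes tested) and 0 lower, with a median of 0.62. *Fkbp5*, a co-chaperone of the glucocorticoid receptor, had 9.18, 8.62, 7.71, 13.6 and 9.00 CPM in WT and 19.8 to 51.9 CPM in Lep(ob/ob) mice, with no overlap. Its log2 fold change was 1.80 (SE 0.19, adjusted p = 4.7e-05), and the batches gave 1.76 and 1.92. *Zbtb16*, a zinc finger repressor, rose by 2.43 (SE 0.35, adjusted p = 0.000449), from 1.21 to 5.35 CPM in WT to 9.69 to 33.7 CPM in Lep(ob/ob) mice. *Per1* is also on this list, and its lowest Lep(ob/ob) and highest WT values were both 17.8 CPM after rounding (log2 fold change 1.78, SE 0.34, adjusted p = 0.00321). *Tsc22d3* (0.67), *Klf9* (0.54) and *Sult1a1* (0.70) had smaller rises with overlap between groups. The classical targets *Sgk1* (0.16), *Cdkn1a* (0.21) and *Mt1* (0.30) and the receptor gene *Nr3c1* (-0.03) were not called. The count was 3 without WT mouse 5489, 58 or 59 or Lep(ob/ob) mouse 472 or 447, with the 12 mice alone, and without mice 417, 461 and 463 together.

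Digestive enzyme genes make up the bulk of the RNA of this organ. Of 26 members tested, 1 was called higher and 4 lower (15.4%, against 3.14% of all genes tested), with a median of -0.19, and the pancreatic lipase *Pnlip* (-0.04), the carboxypeptidase *Cpa1* (-0.15) and the chymotrypsinogen *Ctrb1* (0.03) were not called. *Ctrc*, chymotrypsin C, which trims and degrades trypsinogen, had 449, 357, 463, 493 and 696 CPM in WT mice. In Lep(ob/ob) mice it had 88.9 to 266 CPM with a median of 205, so that no mouse overlapped, and the log2 fold change was -1.43 (SE 0.24, adjusted p = 0.00115). The difference was -0.89 within RQ14163 and -2.09 within RQ15502. The elastase *Cela3a* (-2.29, adjusted p = 0.00273) and the phospholipase *Pla2g1b* (-1.01, adjusted p = 0.0444) were also lower, as was the amylase copy *Amy2a5* (-1.05, adjusted p = 0.0146). The lower count stayed at 4 without WT mouse 59 or Lep(ob/ob) mouse 461. It was 3 without any other single mouse, where *Pla2g1b* lost its call. The trypsinogen *Prss1* was higher, with 3.29 to 5.76 CPM in WT and 5.42 to 225 CPM in Lep(ob/ob) mice (log2 fold change 3.72, SE 0.63, adjusted p = 0.00142). *Prss1*, *Cela3a*, *Amy2a5* and *Klk1b11* belong to families of much alike copies, so how reads were split between the copies is uncertain.

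Among 8 acinar transcription factors, *Ptf1a*, which keeps acinar cell identity, was the only gene called (12.5% lower, against 3.14% of all genes tested). It had 69.5, 48.8, 54.3, 32.7 and 28.8 CPM in WT and 9.88 to 36.3 CPM in Lep(ob/ob) mice. Its log2 fold change was -1.03 (SE 0.21, adjusted p = 0.00561), and it was -1.01 within each batch. Its partner *Rbpjl* (-0.36), *Bhlha15* (-0.24), *Nr5a2* (-0.37) and *Gata4* (-0.45) were not called. Of 13 genes of zymogen granules and acinar secretion, the water channel *Aqp8* fell (log2 fold change -1.42, SE 0.27, adjusted p = 0.00295) and the calcium release channel *Itpr3* rose (0.43, SE 0.11, adjusted p = 0.0168). The shares were thus 7.69% lower and 7.69% higher, against 3.14% and 5.93% of all genes tested. *Itpr3* lost its call without WT mouse 5494 or 58 and without the batch covariate, and 3 members of the list were lower without Lep(ob/ob) mouse 464. *Tff2*, a secreted trefoil peptide, was at 2034 to 2521 CPM in WT and 526 to 1894 CPM in Lep(ob/ob) mice but did not pass the threshold (log2 fold change -0.77, SE 0.27, adjusted p = 0.0844). Of 29 endoplasmic reticulum chaperone and unfolded protein response genes, *Creld2* (-1.10, adjusted p = 0.0136) and *Pdia2* (-0.75, adjusted p = 0.0445) were lower (6.9%, against 3.14% of all genes tested) and none was higher. *Hspa5* (-0.27), the main chaperone of this compartment, and *Xbp1* (0.15) were not called.

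Receptors through which hormones and nerves drive pancreatic secretion differed in direction. Of 8 tested, 4 were called higher (50%) and 1 lower (12.5%), against 5.93% and 3.14% of all genes tested. The higher count was 2 without WT mouse 5489, 5492 or 5494, and *Vipr1* lost its call in all 3 fits. *P2ry1*, an ATP and ADP receptor, had 2.20, 1.67, 2.21, 2.01 and 1.40 CPM in WT and 4.06 to 10.9 CPM in Lep(ob/ob) mice without overlap (log2 fold change 1.94, SE 0.35, adjusted p = 0.0024). The muscarinic acetylcholine receptor *Chrm1* (1.09, adjusted p = 0.0132), the VIP receptor *Vipr1* (0.86, adjusted p = 0.0189) and the glucagon receptor *Gcgr* (2.10, adjusted p = 0.0225) were higher with overlap, and the secretin receptor *Sctr* (-1.39, adjusted p = 0.016) was lower, at 2.13 CPM or less in every mouse. *Sctr* lost its call without WT mouse 59, without mice 417, 461 and 463 (log2 fold change -1.17, adjusted p = 0.115) and in each batch alone. With the β cell marker score as a covariate, 3 of the receptors were called higher and *Vipr1* was not (0.37, adjusted p = 0.19). In that fit the log2 fold change was 0.87 for *P2ry1* and 1.11 for *Chrm1*. All 4 receptors called higher in the main test had the larger difference in RQ14163. *Cckar*, the receptor for the gut hormone CCK on acinar cells, was at 234 to 653 CPM in WT and 143 to 460.4 CPM in Lep(ob/ob) mice and was not called (log2 fold change -0.55, SE 0.25, adjusted p = 0.182). *Cckbr* had 0 to 9 counts per mouse and was not tested. Of 16 duct cell markers, 1 was called higher and 1 lower (6.25% each, against 5.93% and 3.14% of all genes tested). The keratin *Krt7* was the higher one (1.03, adjusted p = 0.0125), and *Krt19* (-0.50), *Sox9* (-0.32) and *Cftr* (-0.53) were not called. With the β cell marker score as a covariate *Krt7* was not called (0.40, adjusted p = 0.0985), and 5 duct cell markers were called lower.

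The largest falls with no overlap were those of *Tdh*, *Gal*, *Smim24*, *Cela3a*, *Klk1b11*, *Nfil3*, *Nat8*, *Fat3*, *Pkd2l2*, *Slc16a5*, *Slco4a1* and *Fam81a*. *Gal* (chr19:3409915-3414544, minus strand) encodes galanin, a peptide of nerves and endocrine cells that restrains insulin release. It had 135, 103, 167, 119 and 85.3 CPM in WT and 7.97 to 31.3 CPM in Lep(ob/ob) mice, with a median of 17.2. The lowest lean mouse was well above the highest obese one, the log2 fold change was -2.80 (SE 0.25, adjusted p = 2.38e-05), and it went against the rise of the granule genes with which such peptides are stored. *Tdh*, threonine dehydrogenase, had 9.03 to 23.3 CPM in WT and 0.272 to 3.72 CPM in Lep(ob/ob) mice (log2 fold change -3.11, SE 0.41, adjusted p = 0.0002). The monocarboxylate transporter gene *Slc16a5* (-1.80, adjusted p = 0.000174), the organic anion transporter *Slco4a1* (-1.59, adjusted p = 0.00334) and the atypical cadherin *Fat3* (-1.98, adjusted p = 0.000174) fell to a similar degree. *Smim24* was at 18.1 to 29.2 CPM in the WT mice of RQ14163 and at 3.77 and 4.94 CPM in those of RQ15502, and at 1.11 to 2.93 CPM in Lep(ob/ob) mice.

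**Figure D5:**
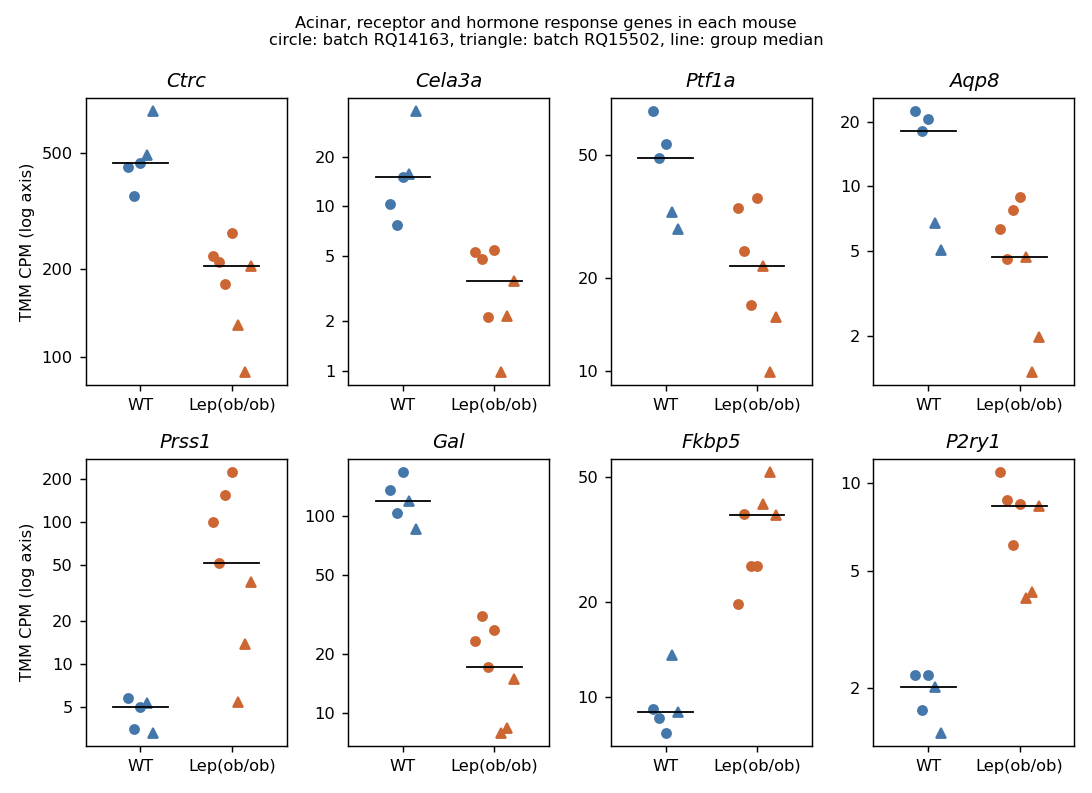
TMM CPM on a log axis of 8 acinar, receptor and hormone response genes in each mouse, with symbols by sequencing batch and the group median as a line. *Ctrc*, *Cela3a* and *Gal* are lower and *Fkbp5* and *P2ry1* higher in Lep(ob/ob) mice without overlap, while *Ptf1a*, *Aqp8* and *Prss1* overlap.

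Lipid genes were called higher more often than lower. Of 24 genes of cholesterol synthesis and uptake, 3 were called higher (12.5%, against 5.93% of all genes tested) and 0 lower, with a median of 0.23. Of 21 fatty acid and triglyceride synthesis genes, *Srebf1* (0.64), *Acly* (0.91) and *Mlxipl* (0.89) were called higher (14.3%). The desaturase *Scd1* ranged from 52.2 to 375 CPM in WT and from 213 to 6424 CPM in Lep(ob/ob) mice and was not called (2.37, SE 1.02, adjusted p = 0.166), and 11 of the 21 were highest in mice 417, 461 and 463. Without these mice 1 member was called, *Mlxipl*, which lost its call in 10 of the 12 fits that left out 1 mouse. The count was 0 without WT mouse 58, 1 without WT mouse 5489 and 5 without Lep(ob/ob) mouse 464. Of 25 fatty acid oxidation and PPAR target genes, *Acadl* (0.95, adjusted p = 0.00498), *Pdk4* (1.82), *Slc25a20* (0.86) and *Acaa2* (0.49) were higher (16%), and 2 members were without WT mouse 5489, WT mouse 59, Lep(ob/ob) mouse 417 or mice 417, 461 and 463. *Ppara* itself, the nuclear receptor of this program, was lower without overlap, at 10.2 to 14.4 CPM in WT and 4.75 to 9.59 CPM in Lep(ob/ob) mice (log2 fold change -0.72, SE 0.14, adjusted p = 0.00344). Of 18 glycolysis genes, *Hk2* (1.24) and *Pfkfb3* (1.50) were called higher (11.1%). Mice 417, 461 and 463 were the highest for 8 of the 18, *Pfkfb3* among them, and without these mice 0 were called. In that fit the log2 fold changes were 0.86 for *Hk2* (adjusted p = 0.144) and 0.83 for *Pfkfb3* (adjusted p = 0.109). The count was also 0 without WT mouse 58, WT mouse 59 or Lep(ob/ob) mouse 417 alone.

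The called members of the oxidative phosphorylation and mitochondrial ribosomal protein lists, all encoded in the nucleus, were lower by small amounts. Of 74 oxidative phosphorylation genes, 7 were called lower (9.46%) and 0 higher, with a median of -0.34 and a negative log2 fold change in 66. Of 77 mitochondrial ribosomal protein genes, 8 were lower (10.4%) and 0 higher, with a median of -0.26 and a negative log2 fold change in 67. Over all genes tested, 3.14% were called lower. *Mrpl51* was at 18.9 to 22.9 CPM in WT and 11.3 to 18.6 CPM in Lep(ob/ob) mice (log2 fold change -0.50, SE 0.11, adjusted p = 0.00715), and *Ndufc1* of complex I had a log2 fold change of -0.61 (adjusted p = 0.0145). Both counts depended on single mice, ranging from 0 (without WT mouse 59) to 16 (without Lep(ob/ob) mouse 464) and from 2 (without WT mouse 5489 or 58) to 12 (without Lep(ob/ob) mouse 464) when each mouse was left out in turn. Without mice 417, 461 and 463 they were 0 and 1, and with the β cell marker score as a covariate 56 and 43. With the adipocyte marker score they were 10 and 12, and without the batch covariate 1 and 4. In RQ14163 alone they were 2 and 1, and in RQ15502 alone 0 and 0. The median of 80 cytosolic ribosomal protein genes was -0.36, with only *Rps4l* called, in the other direction (0.93). *Rps4l* is annotated as a transcribed processed pseudogene, a copy that can share reads with its parent gene. The log2 fold change was negative in 78 of the 80, and with the β cell marker score as a covariate 67 were called lower and 0 higher. In the main test no member was called among 37 proteasome, 26 ATF4 target, 20 tRNA synthetase, 11 heat shock and 15 immediate early genes. Without Lep(ob/ob) mouse 464, 2 proteasome, 1 heat shock and 1 ATF4 target gene were lower. In RQ14163 alone 4 ATF4 target and 2 immediate early genes were lower. With the β cell marker score 9 proteasome genes were lower and 2 higher, and 7 immediate early genes were higher and 1 lower. Of 40 genes of secretory translocation and trafficking, *Srp19* (-0.79) and *Ost4* (-0.50) were lower (5%). Of 22 lysosome and autophagy genes 3 were higher (13.6%, against 5.93% of all genes tested), among them *Npc1* (0.62) and *Gaa* (0.65). Mice 417, 461 and 463 were the highest for 8 of the 22, and without these mice 1 was called. In that fit *Npc1* (0.48, adjusted p = 0.0548) and *Gaa* (0.38, adjusted p = 0.124) were not called. Of 14 endothelial markers, the VEGF receptor *Flt1* was the only one called (7.14% lower, against 3.14% of all genes tested). It was lower (-0.35, adjusted p = 0.0317), a call that was lost in 9 of the 12 fits that left out 1 mouse. So were those of *Pdia2* in 10, *Srp19* in 7 and *Rps4l* and *Gaa* in 4 each.

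Of 27 cell cycle genes, 3 were called higher (11.1%, against 5.93% of all genes tested) and 0 lower, with a median of 0.61. Without mice 417, 461 and 463, 0 were called, and without WT mouse 5489 or 58 alone, 1 was. *Ccna2*, cyclin A2, was at 0.834 to 1.13 CPM in WT and 1.40 to 2.45 CPM in Lep(ob/ob) mice (log2 fold change 0.96, SE 0.24, adjusted p = 0.0169), and *Cenpf* (1.31) and *Foxm1* (1.06) were called with overlap. *Foxm1* lost its call in 8 of the 12 fits that each left out 1 mouse. Without mice 417, 461 and 463 the log2 fold changes of *Ccna2*, *Cenpf* and *Foxm1* were 0.73, 0.99 and 0.98. With the adipocyte marker score as a covariate 4 members were called higher, these genes among them. The proliferation marker *Mki67* had a log2 fold change of 0.70 (adjusted p = 0.0933). Among 14 inflammatory and acute phase genes, *Itih4*, a plasma protein of the acute phase, rose from 10.5 to 79.4 CPM in WT to 103 to 369 CPM in Lep(ob/ob) mice (log2 fold change 2.85, SE 0.30, adjusted p = 4.72e-05). *Hp* (3.14), *Lbp* (2.44) and *Saa3* (1.83) were also called, which made 4 members higher (28.6%, against 5.93% of all genes tested). *Hp* and *Lbp* were highest in mice 417, 461 and 463. Without these mice the log2 fold changes were 1.62 for *Hp* (adjusted p = 0.117) and 1.19 for *Lbp* (adjusted p = 0.104). In that fit *Itih4* was the only member called higher and 1 other was called lower. Without WT mouse 58, WT mouse 59 or Lep(ob/ob) mouse 417 alone, 1 member was called higher. With the adipocyte marker score as a covariate *Hp* (2.12, adjusted p = 3.04e-07) and *Lbp* (1.62, adjusted p = 1.32e-05) were both called. Of 21 interferon-stimulated genes, *Rsad2* (-1.53, adjusted p = 0.0251) and *Stat2* (-0.55, adjusted p = 0.0431) were lower (9.52%, against 3.14% of all genes tested). The count was 0 without WT mouse 5489 or 58, and *Stat2* lost its call in 8 of the 12 fits. Without mice 417, 461 and 463 the log2 fold changes were -1.61 for *Rsad2* (adjusted p = 0.0678) and -0.52 for *Stat2* (adjusted p = 0.07). In that fit 2 other members were called lower. Of 22 antioxidant genes, *Gclc*, the rate-limiting enzyme of glutathione synthesis, was higher without overlap (0.98, SE 0.19, adjusted p = 0.00344), and *Gpx1* was lower (-0.57, SE 0.13, adjusted p = 0.0131). No other member was called, so the shares were 4.55% higher and 4.55% lower, near the 5.93% and 3.14% of all genes tested. Of 22 insulin receptor and FoxO pathway genes, *Pik3r1* (0.61) and *Foxo3* (0.59) were called higher (9.09%, against 5.93% of all genes tested). The count was 0 without WT mouse 5489, 58 or 59 and 4 without Lep(ob/ob) mouse 441, and *Foxo3* lost its call in 7 of the 12 fits. Of 10 leptin receptor pathway genes, *Lep* and the phosphatase gene *Ptpn1* (0.45) were called higher (20%, against 5.93% of all genes tested), and the receptor *Lepr* (0.05) was not. *Ptpn1* lost its call in 9 of the 12 fits.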

How the data were processed

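RNA of 16 snap-frozen mouse pancreata was sequenced as poly(A)-selected, dUTP-stranded paired-end libraries. Trimming (Trim Galore 0.6.7, cutadapt 3.5) and alignment to mm10 (STAR 2.7.9) were done by the authors, who deposited raw counts per gene symbol. The read counter, its strand setting and the annotation are not given in the sources used here, so overlapping and antisense genes cannot be told apart. The normalized table was not used, and neither table holds comparisons. Genes not tested held at most 0.145% of a library's counts.

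The analysis used edgeR 4.0.16 in R 4.3.3 (filterByExpr, TMM, quasi-likelihood test, Benjamini-Hochberg adjustment) in 1 model of the 3 groups and the sequencing batch. DESeq2 1.42.0 was an alternative. Log2 CPM used a prior count of 2. The standard error (SE) is the log2 fold change divided by the square root of F. The model was tested on simulated data. No 2 libraries were duplicates, with a chi-square per gene of 8.57 to 435 within groups. Figures were drawn with matplotlib 3.10.9.

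Members and 50 gene lists were chosen with earlier results of these data known. The genes named by rule were *Lep*, the 12 largest rises and 12 largest falls (adjusted p under 0.05, mean log2 CPM of at least 1, no overlap between groups, a symbol that is not a clone name) and up to 3 called members of each list in each direction with the smallest p, in all 103 genes. A few of these genes are not reported here. Further list members are examples chosen after their values were seen. The list of genes encoded by mitochondrial DNA had no gene in the table. Positions are from GENCODE and promoters from RefSeq, both on GRCm38, the build called mm10. The alternatives were leaving out the batch covariate, DESeq2 (with or without batch), RLE normalization, normalization without the 50 most counted genes, no filter, at least 10 counts in every mouse, the 12 mice alone, each batch alone, a change of at least 2-fold, adipocyte or β cell marker scores as covariates, and leaving out each mouse.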

Additional observations from a re-analysis of the deposited data

Results flagged for a closer look

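For each of 97 named genes and for body weight, the highest and the lowest mouse of each group were compared with the nearest of the others on the log2 CPM scale by Dixon's ratio, the gap divided by the range of the group. Of 196 groups, 11 were above the 95% critical value, and chance alone gives about 1 in 20.

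In WT mice, mouse 59 stood apart for 4 genes, as the lowest for *Ins2* (ratio 0.749), *Pam* (0.842) and *Rps4l* (0.747) and the highest for *Reg3g* (0.715). Mouse 5489 was the lowest for *Etv1* (0.839) and *Slc25a20* (0.735). In Lep(ob/ob) mice, mouse 463 was the highest for *Acadl* (0.619) and the lowest for *Dapl1* (0.642), *Fat3* (0.593) and *Pdia2* (0.58). Mouse 464 was the highest for *Atp5k* (0.59). No named gene passed a test of the difference in effect between the batches.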

How the results depend on the processing

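Of the 103 named genes, all called, none changed direction in 2557 combinations of a gene and an alternative fit. The call was lost in 370 of these, with 96 genes losing it in batch RQ15502 alone (3 against 2 mice). The genes were named for their calls in the main fit, and the alternatives use the same mice or a part of them, which favors the same direction. The cause of the changes below was not tested unless stated. The 810 higher genes became 459 with at least 10 counts in every mouse (fewer genes tested), 3 in RQ15502 alone (fewer mice) and 2432 with the β cell score as covariate. The 429 lower genes became 120 when a change of at least 2-fold was asked for, 196 without the batch covariate, 255 in RQ14163 alone, 5 in RQ15502 alone, 726 with the adipocyte score and 2004 with the β cell score. With each mouse left out in turn, 556 to 929 genes were higher and 234 to 510 lower. The lower count fell by over 1.5 times without WT mice 5494 (268), 58 (234) or 59 (240), Lep(ob/ob) mouse 417 (275) or WT mouse 5489 (837 genes called in either direction). DESeq2 with batch gave 1065 higher and 630 lower genes, with 1238 of the 1239 among them. Without mice 417, 461 and 463, a fit chosen after the data had been seen, 701 were higher and 313 lower. Body weight differed by 20.4 g in RQ15502 alone (exact permutation p = 0.1, the smallest possible). The number of granule genes called higher was 16 to 23 in the fits other than RQ15502 alone, where it was 0, and with the β cell score 3 were called lower. No paired analysis was possible because the groups have no mouse number in common. Depth limits genes under about 1 CPM, which rest on few reads.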

Other observations

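Some marker lists were high in single mice. The mean log2 CPM of 2 erythroid markers was 3.81 and 3.64 in the WT mice of RQ15502 and 0.73 to 2.21 in those of RQ14163, and -0.26 to 1.76 in Lep(ob/ob) mice. The mean of 4 hepatocyte markers was 3.35 in WT mouse 5492 and 0.24 to 1.74 in the other 11 mice. *Cyp2e1*, on that list and also a fat cell gene, was the only one called, at 6.45 to 50.3 CPM in WT and 0.782 to 21.1 CPM in Lep(ob/ob) mice (log2 fold change -2.71, SE 0.59, adjusted p = 0.00769, edgeR). Genes whose 3 highest Lep(ob/ob) mice were 417, 461 and 463 made up 10.7% of the genes called higher, 1.17% of those called lower and 13.1% of all genes tested.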
